A study of Mus musculus with 16 samples.

Results

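Glutathione S-transferases join glutathione to reactive or foreign molecules so that the cell can export them. Transcripts of 10 genes for soluble members of this enzyme family were measured in mouse liver. They are the alpha-class genes Gsta1, Gsta2, Gsta3 and Gsta4, the mu-class genes Gstm1, Gstm2, Gstm3 and Gstm4, the pi-class gene Gstp1 and the theta-class gene Gstt1. The members were the rows of the deposited table whose mouse Ensembl gene ID carries one of these symbols, which gave 10 of 35275 genes. All 10 passed the filter on low values, which kept 11298 genes.

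The livers came from wild-type mice (WT) and from mice lacking Zfp36l1 in the liver only (LKO). The product of Zfp36l1 attaches to AU-rich messenger RNA and speeds its decay. Each genotype was fed a control diet or a diet containing ethanol, which gave 4 groups of 4 libraries. No other allele or agent is named in the labels, and sex, age, strain, the promoter behind the deletion, ethanol dose and feeding time were not given in the sources used here. Libraries carry the numbers 1 to 4 within a group as names only. The labels do not say that the libraries came from separate animals, so the p-values measure the spread between these libraries, which may be technical.

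The family is ordered in classes by sequence, and each enzyme works as a dimer of subunits of its class. Liver holds large amounts of these enzymes, and many of their genes are classical targets of the transcription factor NRF2, which answers electrophilic and oxidative stress. The receptors CAR and PXR, which sense foreign chemicals, and the aryl hydrocarbon receptor are further textbook regulators of several members. Gsta4 protein is known for its action on 4-hydroxynonenal, an aldehyde formed when lipids are peroxidised. Ethanol metabolism in liver is known to produce acetaldehyde and lipid peroxidation products.

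Levels are in FPKM, which are fragments scaled to gene length and library depth, so they can be compared between genes. Differences are between group means of log2(FPKM + 1), with SE for the standard error of a limma fit over all genes kept and, where useful, its 95% interval. A gene was called at a Benjamini-Hochberg adjusted p under 0.05 over the 11298 genes. In bulk tissue, fewer cells of a type and less RNA per cell cannot be told apart.

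Reads recovered from the deposited values summed to between 19069903 and 24768569 per library, apart from WT ethanol library 2 with 9890475. That library also stood apart in other ways. Transcripts of the mitochondrial genome took 22.5% of its reads, against 3.64 to 6.97% elsewhere. Across genes, its Spearman correlation with the rest had a median of 0.691, against 0.905 to 0.951 for the others, and its summed level of 5 cholangiocyte markers was 75.0 FPKM, against 10.8 to 28.5. Summed markers of sinusoidal endothelium were low in it (8.76 FPKM, against 25.7 to 76.7), as were those of stellate cells (10.8, against 46.8 to 164). This library alone held Y-linked transcripts above a trace, with Ddx3y at 1.43 FPKM and Xist at 6.62, whereas Xist lay at 13.7 to 49.4 in the other 15. Values without this library are given below where leaving it out changes a call or moves a value by much. Zfp36l1 measured 9.30 to 25.5 FPKM in the 8 WT libraries and 0.572 to 1.76 in the 8 LKO libraries. Within groups, libraries 1 and 2 lay apart from libraries 3 and 4 on the leading component of variation, and the labels name no batch for this. Hepatocyte markers were abundant in every group, with a summed level of 42479 to 80600 FPKM over 7 genes.

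Several members are near-identical in sequence, which bears on how their reads could be assigned. The opening 90 coding bases, from the ATG, are shown for the members with close copies and for those copies, with each base that differs from the leading gene of its class in capitals. They are transcript sequences of GENCODE M21 on GRCm38. The alpha-class genes shown lie on chromosome 9, and Gm3776 and Gm10639 are predicted genes of the same cluster.
Gsta1: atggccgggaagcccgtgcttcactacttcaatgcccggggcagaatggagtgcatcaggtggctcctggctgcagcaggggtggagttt
Gsta2: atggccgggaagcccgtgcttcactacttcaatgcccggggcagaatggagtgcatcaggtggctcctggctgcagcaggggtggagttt
Gm3776: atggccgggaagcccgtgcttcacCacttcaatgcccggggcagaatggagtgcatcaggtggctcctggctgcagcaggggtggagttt
Gm10639: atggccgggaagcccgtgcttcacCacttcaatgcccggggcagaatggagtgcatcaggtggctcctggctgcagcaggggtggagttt
In the mu class on chromosome 3 the differences were more frequent.
Gstm1: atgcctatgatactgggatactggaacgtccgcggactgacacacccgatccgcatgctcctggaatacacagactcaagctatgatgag
Gstm2: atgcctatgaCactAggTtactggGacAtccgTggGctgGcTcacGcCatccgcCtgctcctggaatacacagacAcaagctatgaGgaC
Gstm3: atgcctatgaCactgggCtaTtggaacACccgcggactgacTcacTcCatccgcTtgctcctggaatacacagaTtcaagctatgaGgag
Gstm4: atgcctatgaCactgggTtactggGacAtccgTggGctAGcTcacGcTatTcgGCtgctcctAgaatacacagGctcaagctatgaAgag
In the pi class on chromosome 19, Gstp1 lies beside its copies Gstp2 and Gstp3.
Gstp1: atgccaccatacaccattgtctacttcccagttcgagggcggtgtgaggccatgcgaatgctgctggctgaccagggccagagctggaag
Gstp2: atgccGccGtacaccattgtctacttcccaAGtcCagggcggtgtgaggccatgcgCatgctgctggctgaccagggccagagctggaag
Gstp3: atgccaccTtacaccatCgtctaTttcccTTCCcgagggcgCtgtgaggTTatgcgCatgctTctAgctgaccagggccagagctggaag

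Over this stretch Gsta2 differed from Gsta1 at 0 bases, and Gm3776 and Gm10639 differed at 1 each. Gstm2, Gstm3 and Gstm4 differed from Gstm1 at 15, 11 and 17 bases. From Gstp1, Gstp2 differed at 6 and Gstp3 at 13. Over the whole coding sequence, Gsta1 and Gsta2 were identical at 655 of 672 aligned positions (97.5%), Gsta1 and Gm3776 at 670 of 672 (99.7%), Gsta2 and Gm10639 at 98.5%, and Gstp1 and Gstp2 at 98.1%. The closest members of the mu class, Gstm2 and Gstm3, were identical at 85.1%.

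The same question was put to the whole transcripts by counting the stretches of 50 bases that also occur in a transcript of another gene. For Gsta1 the share was 90.5%, and 75.7% of its stretches occur in Gm3776. It was 49.8% for Gsta2, 33.7% for Gstp1 (all with Gstp2), 28.8% for Gstm3 and 18.9% for Gstm1. Gstm2 had 5.66% and Gsta3 0.273%, while Gsta4, Gstm4 and Gstt1 had 0. With stretches of 100 bases Gsta1 still shared 80.6%, Gsta2 28.4% and Gstp1 25.1%. No row of the deposited table matched Gm3776, so its level was not available. How reads matching several genes were counted is not given in the sources used here. The levels of Gsta1 and Gsta2 are therefore uncertain as to which of these genes the reads came from, and those of Gstp1, Gstm3 and Gstm1 to a smaller extent.

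Before diet was considered, the members fell into an abundant and a scarce set. In WT livers on the control diet the order of mean levels was Gsta3 (624 FPKM), Gstm1 (453), Gstt1 (301), Gstp1 (157), Gsta4 (36.6), Gstm2 (35.4), Gsta2 (14.9), Gstm4 (12.7), Gstm3 (9.89) and Gsta1 (1.06). Neighbours in this order overlapped in the ranges of their libraries, except that Gstt1 lay apart from Gstp1, Gstp1 from Gsta4, and Gstm3 from Gsta1. In LKO livers on the control diet the same 4 genes led, with Gsta3 at 525, Gstm1 at 449, Gstp1 at 373 and Gstt1 at 362 FPKM, and Gsta1 was again lowest at 0.551. On the ethanol diet Gstm1 led in both genotypes, with 1632 FPKM in WT and 1521 in LKO, followed by Gstp1 with 777 and 776. All neighbours in the order on ethanol overlapped in their ranges, in WT and in LKO.

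**Figure D1:**
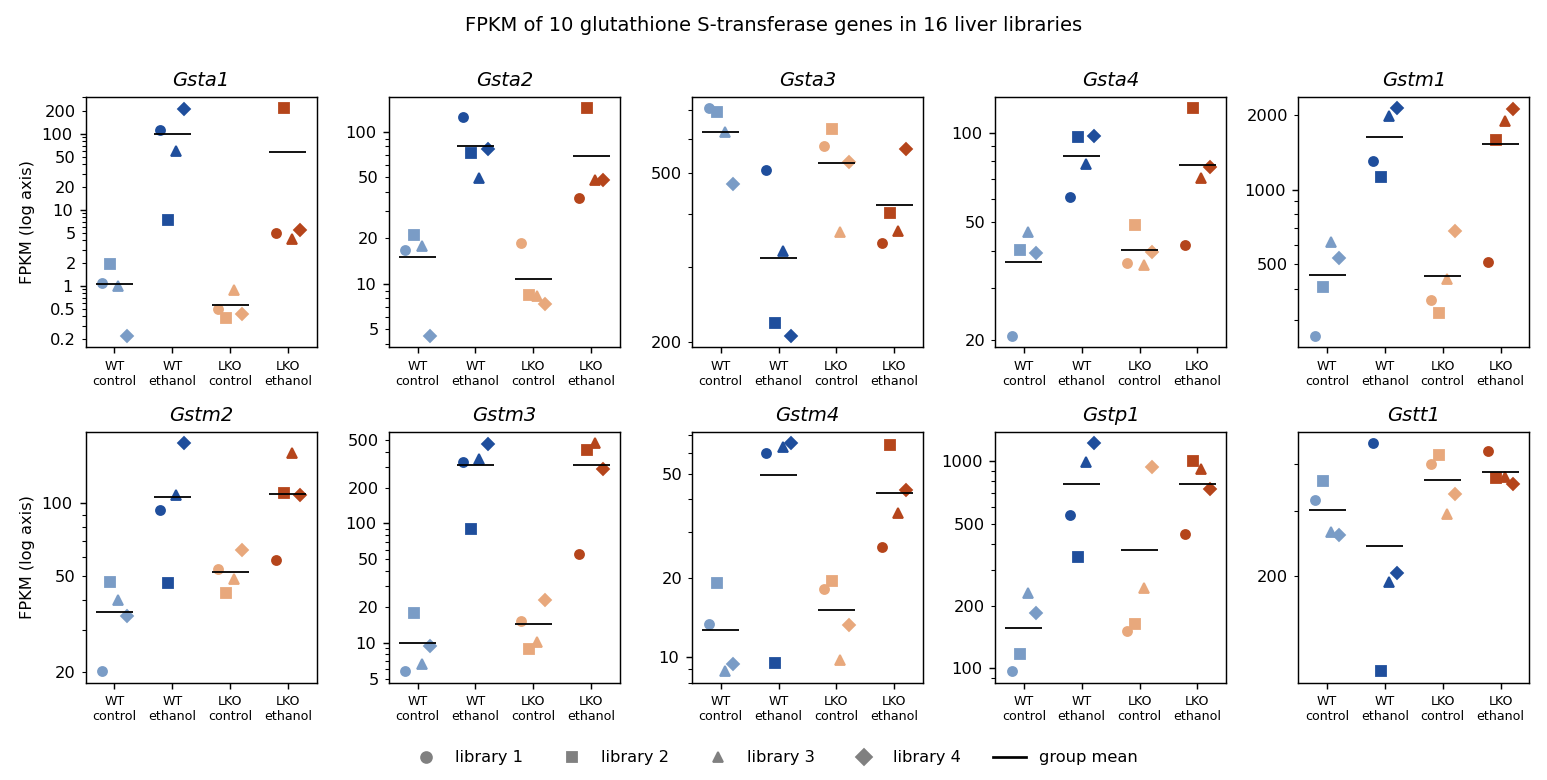
FPKM of each of the 10 genes (log axis, scaled per gene) in the 4 groups, with 1 point per library, the symbol giving the library number and the bar the group mean of 4. All ethanol points of Gsta1 and Gstm3 lie above all control points of the same genotype, whereas those of Gsta3 and Gstt1 overlap the control points.

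Diet was the comparison in which the family moved. In WT livers 7 of the 10 genes were higher on ethanol at the threshold (Gsta1, Gsta2, Gsta4, Gstm1, Gstm2, Gstm3 and Gstp1), 0 were lower, and Gsta3, Gstm4 and Gstt1 were not called. Of all genes kept, 4.18% were called in this comparison. In LKO livers 2 of the 10 were called, Gsta2 and Gstm3, both higher, where 0.425% of all genes were called. Averaged over both genotypes, 8 of 10 were higher (the 7 of WT and Gstm4), 0 lower, and Gsta3 and Gstt1 were not called, against 7.78% of all genes. This average is built from the same libraries as the comparisons within WT and within LKO, and adds no independent evidence. The WT count fell to 2 without WT control library 4 and to 3 without WT control library 1, WT control library 2 or WT ethanol library 4, and the LKO count fell to 0 without LKO ethanol library 3.

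The median log2 change of the 10 genes was 1.75 in WT, 1.41 in LKO and 1.63 on average, beside −0.02, 0.06 and 0.02 for all genes kept. Ethanol and control libraries did not overlap, with ethanol higher, for 6 of the members in WT (Gsta1, Gsta2, Gsta4, Gstm1, Gstm3, Gstp1), against 5.62% of all genes. In LKO this was so for 4 (Gsta1, Gsta2, Gstm3, Gstm4), against 8.15% of all genes. Without WT ethanol library 2, 8 members were called in WT (Gstm4 being added), against 9.48% of all genes. The LKO count was then 4 (Gsta2, Gstm1, Gstm3 and Gstm4, all higher), against 3.62%, since each gene's spread is estimated over all groups. The average over genotypes gave 9 calls, 8 higher and Gsta3 lower, against 20.5%. With all 16 libraries and a term for the split of libraries 1 and 2 from 3 and 4, 8 members were called in WT (6.87% of all genes), 3 in LKO (0.841%) and 9 on average (12.3%). The added calls were Gsta3, lower in WT and on average, and Gstm1 in LKO. The split was found in these same values, so its term removes the spread that defined it. These added calls are no independent evidence.

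Markers of other cell types were examined for the same comparisons. Of 32 markers of 8 other cell types, 18 were kept, 0 were called by limma in WT or in LKO, and 3 were higher on average. These were Lyve1 of sinusoidal endothelium (1.75, adjusted p = 0.0208), Retnlg of neutrophils (0.91, adjusted p = 0.0172) and Sox9 of cholangiocytes (0.79, adjusted p = 0.0160). The other 3 endothelial markers did not go with Lyve1, with average differences of −1.06 for Clec4g (adjusted p = 0.0985), −0.46 for Kdr (0.275) and −0.33 for Stab2 (0.306). Summed, the 4 endothelial markers had medians of 48.8 FPKM on control and 44.0 on ethanol in WT, and 50.5 and 42.5 in LKO. Lyve1 was, without WT ethanol library 2, also called in WT (2.58, adjusted p = 0.00244) and in LKO (1.75, adjusted p = 0.0177), and Spp1 of cholangiocytes was lower on average (−0.64, adjusted p = 0.0128). Among 7 hepatocyte markers 0 were called by limma with all libraries, and without that library Cps1 was higher on average (0.83, adjusted p = 0.00444) and Ttr lower (−0.54, adjusted p = 0.0186). The summed level of 3 neutrophil markers had a median of 2.76 FPKM in WT on control (0.938 to 6.11) and 8.77 on ethanol (2.58 to 11.3), and of 3.87 (1.501 to 5.06) and 13.8 (2.84 to 20.3) in LKO. The part of these cells in the diet differences of the family was not tested.

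**Figure D2:**
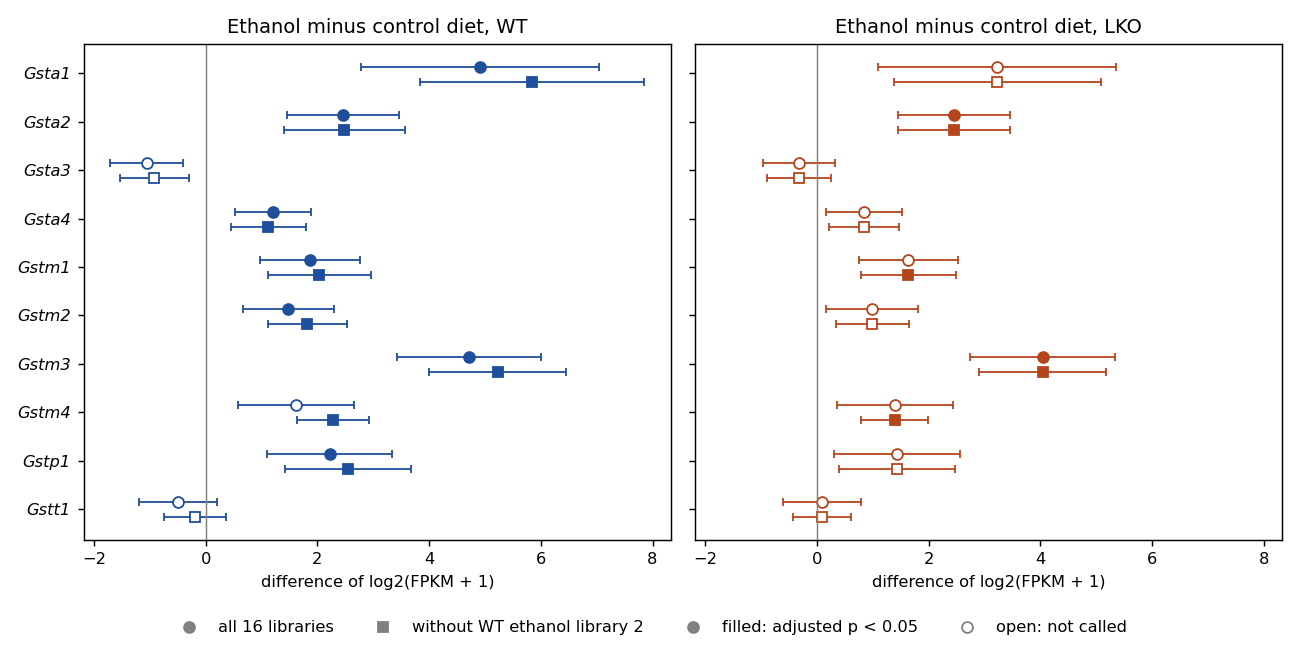
Ethanol minus control diet on the log2(FPKM + 1) scale for each gene in WT and in LKO livers, with 95% intervals of the limma fit. Circles use all 16 libraries, squares leave out WT ethanol library 2, and filled symbols mark adjusted p under 0.05, of which there are 7 circles in WT and 2 in LKO.

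Gsta1 (ENSMUSG00000074183, GRCm38 chromosome 9, 78230656 to 78242684, plus strand, protein-coding) encodes an alpha-class subunit known to be highly inducible by foreign chemicals. In WT control libraries 1 to 4 it measured 1.08, 1.96, 0.985 and 0.219 FPKM, which rested on 18, 41, 21 and 4 reads. On ethanol the WT libraries held 112, 7.40, 58.6 and 214 FPKM. The LKO control libraries held 0.502, 0.380, 0.893 and 0.430 FPKM, and the LKO ethanol libraries 5.01, 218, 4.07 and 5.44.

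In each genotype every ethanol library exceeded every control library for Gsta1, but the ethanol groups were very uneven. WT ethanol library 2 was low, and LKO ethanol library 2 was high while the other 3 LKO ethanol libraries stayed below all WT ethanol libraries. The log2 change was 4.91 in WT (SE 1.01, 95% interval 2.78 to 7.04, adjusted p = 0.0136) and 3.23 in LKO (SE 1.01, adjusted p = 0.226). The WT change was 5.85 without WT ethanol library 2 (adjusted p = 0.00295) and without WT control library 4 it was 4.68 (adjusted p = 0.0503). Without LKO ethanol library 2 the LKO change was 1.92 (adjusted p = 0.594). Averaged over genotypes the change was 4.07 (adjusted p = 0.00240).

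The near copy Gm10639 went with Gsta1. It measured 5.64, 0, 2.94 and 9.96 FPKM in WT ethanol libraries 1 to 4 and 14.6 in LKO ethanol library 2, against 0.179 to 0.285 in the other LKO ethanol libraries and at most 0.193 in the controls. The libraries in which Gsta1 was high were thus those in which Gm10639 was high. Nqo1, a quinone reductase and a classical NRF2 target, was 43.1 FPKM in LKO ethanol library 2, against 8.69 to 10.9 in the other 3 of that group.

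Gsta2 (ENSMUSG00000057933, chromosome 9, 78331018 to 78355788, minus strand), the partner of Gsta1 in sequence and likewise known to be inducible, started from a higher level. It measured 16.8, 20.8, 17.6 and 4.52 FPKM in WT control libraries 1 to 4, and 124, 72.9, 49.4 and 77.1 on ethanol. In LKO the control values were 18.4, 8.46, 8.32 and 7.35, and the ethanol values 36.8, 143, 47.7 and 47.8. Ethanol and control libraries did not overlap in either genotype, and WT control library 4 was the lowest of all 16 for Gsta2 as it was for Gsta1.

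The log2 change of Gsta2 was 2.46 in both genotypes, with an SE of 0.474 and adjusted p of 0.0104 in WT and 0.0323 in LKO. Averaged, it had an adjusted p of 0.000602. The call in LKO was lost when any of LKO control library 2 (adjusted p = 0.145), 3 (0.0916) or 4 (0.109), LKO ethanol library 2 (0.146) or 3 (0.0816), or WT control library 1 (0.0507) was left out, with changes of 2.04 to 2.56. In WT it was called in each of the 16 fits that left out 1 library, but not when only the WT groups were fitted (adjusted p = 0.0534).

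Gsta3 (ENSMUSG00000025934, chromosome 1, 21240589 to 21265661, plus strand) lies away from the other alpha genes and is known for the high activity of its product towards aflatoxin epoxide in mice. It measured 708, 694, 622 and 471 FPKM in WT control libraries 1 to 4, and 507, 223, 328 and 207 in WT ethanol libraries. The LKO control values were 576, 634, 363 and 528, and the LKO ethanol values 341, 403, 364 and 569. Only WT ethanol library 1 reached into the WT control range, whereas the LKO groups overlapped widely.

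Gsta3 changed by −1.06 in WT (SE 0.309, 95% interval −1.71 to −0.40, adjusted p = 0.0635) and −0.32 in LKO (SE 0.309, adjusted p = 0.893). Neither passed the threshold, nor did the average of −0.69 (adjusted p = 0.0626). Without WT ethanol library 1 the WT change was −1.31 (adjusted p = 0.0129). The average passed without WT ethanol library 1 (−0.82, adjusted p = 0.0161), WT ethanol library 2 (−0.62, adjusted p = 0.0370) or LKO ethanol library 4 (−0.77, adjusted p = 0.0453). The term for the split of libraries 1 and 2 from 3 and 4 was drawn from these same values. With it, Gsta3 was called lower in WT (−1.06, adjusted p = 0.0395) and on average (−0.69, adjusted p = 0.0371).

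Gsta4 (ENSMUSG00000032348, chromosome 9, 78182774 to 78209349, plus strand), whose product handles 4-hydroxynonenal, started above Gsta2 on the control diet. Its values were 20.7, 40.2, 46.2 and 39.4 FPKM in WT control libraries 1 to 4, and 60.8, 96.9, 78.6 and 97.1 in WT ethanol libraries. In LKO they were 36.4, 48.8, 35.8 and 39.7 on control and 41.9, 121, 70.3 and 76.9 on ethanol. The WT groups did not overlap, and in LKO only ethanol library 1 lay within the control range. The log2 change was 1.20 in WT (SE 0.322, adjusted p = 0.0446) and 0.85 in LKO (SE 0.322, adjusted p = 0.375), and 1.02 on average (adjusted p = 0.0107). The WT call stood close to the threshold and was lost in 12 of the 16 fits that left out 1 library, the highest adjusted p being 0.159 when WT control library 1 was dropped.

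The mu-class genes lie in a cluster on chromosome 3 and encode subunits with broad activity towards epoxides and quinones. Gstm1 (ENSMUSG00000058135, 108012255 to 108017973, minus strand) is the most abundant of them in liver. It measured 258, 407, 616 and 531 FPKM in WT control libraries 1 to 4 and 1305, 1120.0, 1977 and 2127 in WT ethanol libraries. The LKO values were 359.6, 321, 436 and 679 on control and 512, 1588, 1881 and 2102 on ethanol. In WT the groups were well apart, and in LKO only ethanol library 1 stayed within the control range.

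Gstm1 changed by 1.87 in WT (SE 0.423, adjusted p = 0.0209), by 1.64 in LKO (SE 0.423, adjusted p = 0.111) and by 1.75 on average (adjusted p = 0.00206). The LKO change was called without LKO ethanol library 1 (2.10, adjusted p = 0.0296), without WT ethanol library 2 (adjusted p = 0.0352) and with the term for the split (adjusted p = 0.0206). The WT call was lost without WT control library 1 (1.62, adjusted p = 0.0785), 2 (0.0629) or 4 (0.0503), or WT ethanol library 4 (0.0601).

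Gstm2 (ENSMUSG00000040562, 107981702 to 107986453, minus strand) was a scarcer member of the cluster. It measured 20.2, 47.2, 40.0 and 34.0 FPKM in WT control libraries and 94.4, 47.0, 108 and 177 in WT ethanol libraries 1 to 4. The corresponding LKO values were 53.5, 42.7, 48.8 and 63.9, and 58.4, 111, 161 and 109. In WT only ethanol library 2 overlapped the controls, and in LKO only ethanol library 1 did. The change was 1.48 in WT (SE 0.387, adjusted p = 0.0394), 0.99 in LKO (SE 0.387, adjusted p = 0.406) and 1.23 on average (adjusted p = 0.0106). Of the 16 fits that left out 1 library, 10 lost the WT call, and dropping WT control library 1 gave the highest adjusted p, 0.139. It was 1.82 without WT ethanol library 2 (adjusted p = 0.00540).

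Gstm3 (ENSMUSG00000004038, 107963696 to 107969283, minus strand) had the smallest adjusted p of the family in every comparison of diets. Control libraries 1 to 4 held 5.76, 17.7, 6.64 and 9.48 FPKM in WT and 15.3, 8.94, 10.1 and 23.0 in LKO. Ethanol libraries held 325, 90.7, 344 and 467 in WT, and 55.0, 416, 468 and 285 in LKO. No ethanol library overlapped a control library of either genotype. The lowest ethanol values came from the same libraries as for Gstm2, namely WT ethanol library 2 and LKO ethanol library 1.

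Gstm3 changed by 4.72 in WT (SE 0.613, 95% interval 3.42 to 6.01, adjusted p = 0.00118) and by 4.04 in LKO (SE 0.613, 95% interval 2.74 to 5.33, adjusted p = 0.00749). The average was 4.38 (adjusted p = 5.10e-05). In WT the call held in all 16 fits that left out 1 library, with changes of 4.44 to 5.22. In LKO it was lost without LKO ethanol library 3 (3.71, adjusted p = 0.0550) and held in the other 15.

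Gstm4 (ENSMUSG00000027890, 108040408 to 108044894, minus strand), which shares no 50-base stretch with another gene, was called in the average over genotypes only. Its WT control values were 13.4, 19.2, 8.82 and 9.44 FPKM, and its WT ethanol values 59.7, 9.48, 63.1 and 65.1 in libraries 1 to 4. In LKO it measured 18.1, 19.4, 9.76 and 13.3 on control and 26.3, 64.2, 35.3 and 43.1 on ethanol. WT ethanol library 2 sat among the controls while the other 3 lay within 59.7 to 65.1. The LKO groups did not overlap.

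For Gstm4 the change was 1.62 in WT (SE 0.492, adjusted p = 0.0730) and 1.39 in LKO (SE 0.492, adjusted p = 0.310), and on average 1.51 (adjusted p = 0.0134). Leaving out WT ethanol library 2 moved the WT change to 2.28 (adjusted p = 0.00124). The LKO change of 1.39 then had an adjusted p of 0.0163.

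Gstp1 (ENSMUSG00000060803, chromosome 19, 4035407 to 4037985, minus strand) is the pi-class gene, known in mouse liver for higher levels in males than in females. It measured 96.7, 117, 231 and 185 FPKM in WT control libraries 1 to 4 and 552, 346, 989.7 and 1221 in WT ethanol libraries. The LKO control values were 151, 164, 244 and 934, and the LKO ethanol values 444, 999.7, 924 and 736. WT groups did not overlap. LKO control library 4 lay above 3 of the 4 LKO ethanol libraries and far from the other 3 controls.

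The log2 change of Gstp1 was 2.22 in WT (SE 0.531, adjusted p = 0.0267), 1.43 in LKO (SE 0.531, adjusted p = 0.358) and 1.83 on average (adjusted p = 0.00647). Without LKO control library 4 the LKO change was 2.02 (adjusted p = 0.103). The WT call was lost without WT control library 1 (2.02, adjusted p = 0.0925), 2 (0.0852) or 4 (0.0617), or WT ethanol library 3 (0.0595) or 4 (0.0756).

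LKO control library 4 also differed in genes known to differ between the sexes in mouse liver, a set chosen after its values were seen. The male-typical genes Cyp4a12a and Mup20 measured 6.23 and 411 FPKM there, against at most 0.238 and 106 in all others. The female-typical genes Sult3a1 and Cyp2b13 measured 1.56 and 0.801 FPKM, against 125 to 135 and 42.4 to 72.4 in the other 3 LKO control libraries. Over all other libraries Cyp2b13 lay at 12.1 to 238 FPKM, but Sult3a1 was lower still in some. These were WT ethanol libraries 2 to 4 (0 to 0.431 FPKM) and LKO ethanol library 2 (0.272). Xist was 25.0 FPKM and Ddx3y was at 0 in LKO control library 4. The part of this in its Gstp1 level was not tested.

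The copy Gstp2 rose in WT, from 0.136 to 0.935 FPKM over the control libraries to 2.89 to 25.3 on ethanol, a log2 change of 2.72 (SE 0.632, adjusted p = 0.0235). The LKO libraries ran from 0.961 to 3.80 on control and from 1.10 to 27.6 on ethanol (1.35, adjusted p = 0.539). Its level stayed far below that of Gstp1 in every library. The third pi-class gene, Gstp3, was not called in WT (0.59, adjusted p = 0.461) or in LKO (−0.63, adjusted p = 0.753).

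Gstt1 (ENSMUSG00000001663, chromosome 10, 75783813 to 75798584, minus strand) belongs to the theta class, known for acting on small halogenated molecules. It measured 321, 362, 263 and 258 FPKM in WT control libraries 1 to 4 and 456, 111, 193 and 204 in WT ethanol libraries, and 400.2, 423, 294 and 332 on control and 435, 367, 371 and 354 on ethanol in LKO. WT ethanol values spread on both sides of the controls. The log2 change was −0.49 in WT (SE 0.333, 95% interval −1.20 to 0.21, adjusted p = 0.439) and 0.09 in LKO (SE 0.333, 95% interval −0.62 to 0.79, adjusted p = 0.999). On average it was −0.20 (95% interval −0.70 to 0.29, adjusted p = 0.682). Without WT ethanol library 2 the change of Gstt1 was −0.19 in WT (adjusted p = 0.700) and −0.05 on average (adjusted p = 0.879). With array weights, which give libraries unequal weight by their spread, it was called lower in WT (−0.60, adjusted p = 0.0126).

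These shifts changed the make-up of the family's transcript. The summed FPKM of the 10 genes was 1645 ± 177 in WT on control and 3692 ± 1166 on ethanol, and 1842 ± 528 and 3760 ± 1204 in LKO (SD, n = 4 each). LKO ethanol library 1 had a sum of 1955, inside the LKO control range of 1450 to 2621, whereas the other 3 had 4327 to 4430. Gsta3 made up 38.2% ± 7.94 of the sum in WT control livers and 9.17% ± 4.16 on ethanol, and 29.6% ± 8.43 and 12.0% ± 4.18 in LKO. Gstm1 went the other way, from 27.2% ± 8.03 to 45.0% ± 6.89 in WT and from 24.3% ± 4.72 to 38.5% ± 9.75 in LKO. Gstm3 went from 0.598% to 7.79% in WT and from 0.761% to 7.40% in LKO. Gstp1 held 9.45% and 20.1% in WT, and 17.9% and 20.9% in LKO. Gstt1 held 18.5% and 6.67% in WT, and 20.7% and 11.8% in LKO. These shares add up to a fixed total, so they are not independent of each other, and no test was made on them.

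**Figure D3:**
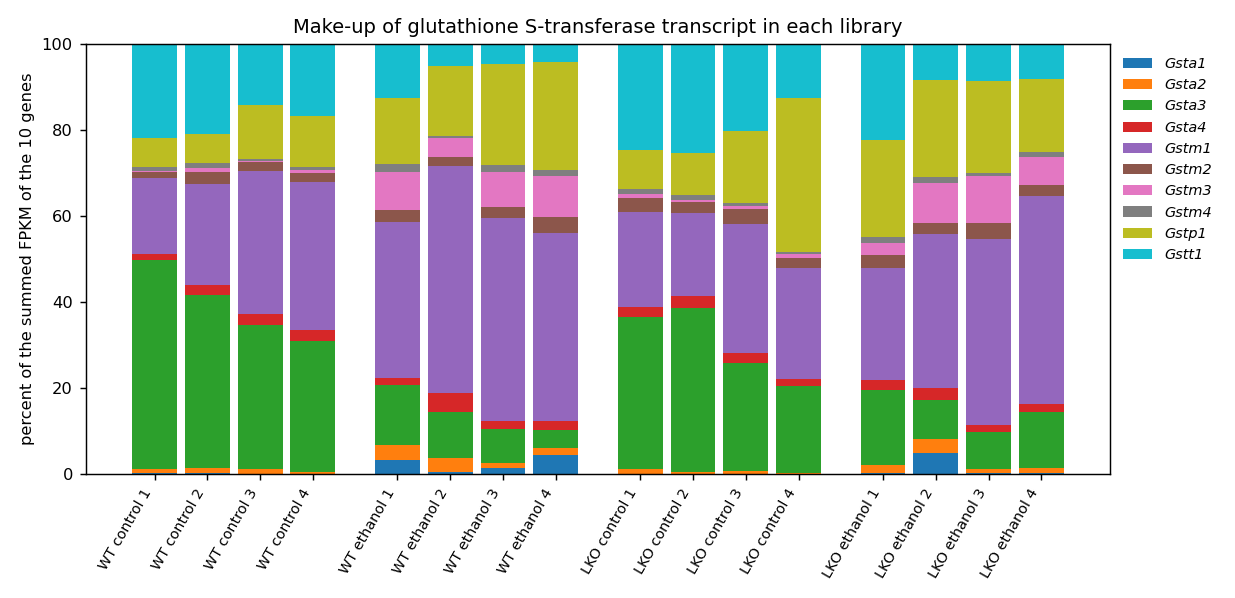
Percent of the summed FPKM of the 10 genes taken by each gene, in each of the 16 libraries. The Gsta3 segment is 30.5 to 48.5% in WT control libraries and 4.26 to 14.1% in WT ethanol libraries, and the Gstm1 segment is larger in each WT ethanol library than in any WT control library.

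Genotype was compared on each diet. On the control diet 0 of the 10 genes were called by limma, against 0.00885% of all genes, 0 had an unadjusted p under 0.05, and no gene of the family had groups that did not overlap, against 9.25% of all genes. On the ethanol diet 0 of 10 were called, against 0.0797%, 1 had an unadjusted p under 0.05, and 0 had groups apart, against 2.69%. The interaction (response to ethanol in LKO less the response in WT) was called for 0 of 10 members and 0% of all genes, and 0 members had an unadjusted p under 0.05. A test on recovered reads with voom called 0 members in each of these comparisons. The median log2 difference of the 10 genes was 0.21 on control and −0.07 on ethanol, beside −0.10 and −0.03 for all genes. On ethanol 5 of the 10 lay above 0. Without WT ethanol library 2 the median on ethanol was −0.32, with 2 of 10 above 0, beside −0.23 for all genes.

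The gene with an unadjusted p under 0.05 on ethanol was Gstt1, which differed by 0.85 on the log2 scale (SE 0.333, 95% interval 0.14 to 1.55) with the higher mean in LKO. Its adjusted p in limma was 0.344. The difference was 1.22 without WT ethanol library 1 (adjusted p = 0.0270, where 3.43% of all genes were called) and 0.54 without WT ethanol library 2 (adjusted p = 0.305). Gsta1 had the widest interval, with a difference of −2.04 on ethanol (95% interval −4.17 to 0.09, adjusted p = 0.442). Dropping WT ethanol library 2 gave −2.98 (95% interval −4.98 to −0.97, adjusted p = 0.171), and dropping LKO ethanol library 2 gave −3.35 (adjusted p = 0.0545). Its interaction was −1.69 (95% interval −4.70 to 1.33, adjusted p = 0.927).

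For the other members the genotype intervals were narrower. Gstm1 differed by 0.00 on control (95% interval −0.90 to 0.89) and by −0.23 on ethanol (−1.13 to 0.66). Gstm3 differed by 0.52 (−0.77 to 1.82) and −0.16 (−1.45 to 1.14), and Gsta2 by −0.37 on both diets (−1.37 to 0.63). Gstp1 differed by 0.88 on control (95% interval −0.24 to 2.004, adjusted p = 1), and by 0.30 without LKO control library 4. On ethanol, 3 differences changed direction without WT ethanol library 2. Gstm4 went from 0.02 to −0.63, Gstm2 from 0.10 to −0.24 and Gstp1 from 0.10 to −0.24, and none of these was called. Intervals of this width do not show that the members are alike in the genotypes. Interaction estimates ran from −1.69 (Gsta1) to 0.73 (Gsta3), with adjusted p of at least 0.927. Leaving out WT ethanol library 2 moved their median from −0.29 to −0.62, beside 0.09 and −0.12 for all genes, and 0 members were called. The interaction was then −2.62 for Gsta1 (95% interval −5.36 to 0.11), −1.19 for Gstm3 (−2.86 to 0.49), −0.88 for Gstm4 (−1.77 to 0.00) and −0.84 for Gstm2 (−1.80 to 0.13), each with an adjusted p of 0.968.

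Single libraries often held the extreme values of several members. LKO ethanol library 1 was the lowest of its group for 8 of the 10 genes, and for 7 of the 8 called in the average over genotypes. WT ethanol library 2 was the lowest of its group for 7 of the 10, while WT ethanol library 4 was the highest for 7, and LKO ethanol library 2 for 5. Within the sets of libraries 1 and 2 and of libraries 3 and 4, each of the 8 called genes was higher on ethanol in both genotypes. These 8 were chosen by their rise over the same libraries, so this adds no independent evidence. For Gstm3 the differences were 3.94 and 5.49 in WT and 3.59 and 4.49 in LKO, and for Gsta1 3.64 and 6.19 in WT and 4.65 and 1.80 in LKO. For Gstp1 they were 2.03 and 2.41 in WT and 2.08 and 0.79 in LKO. Between genotypes on ethanol, Gsta1 differed by 0.23 in libraries 1 and 2 (−1.64 without WT ethanol library 2) and −4.31 in libraries 3 and 4, so that its direction held in both sets without WT ethanol library 2 only. Gstm4 differed by 0.74 and −0.70 in the 2 sets (−0.53 in the first without that library), Gstp1 by 0.61 and −0.41 (0.27) and Gstm2 by 0.27 and −0.06 (−0.23). Gsta3, Gsta4 and Gstt1 differed in direction between the sets when that library was left out. The differences were −0.45, 0.23 and −0.19 in the first set and 0.80, −0.25 and 0.87 in the second. With WT ethanol library 2 left out, the first set held 1 WT ethanol library, so its values rest on that library alone.

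**Figure D4:**
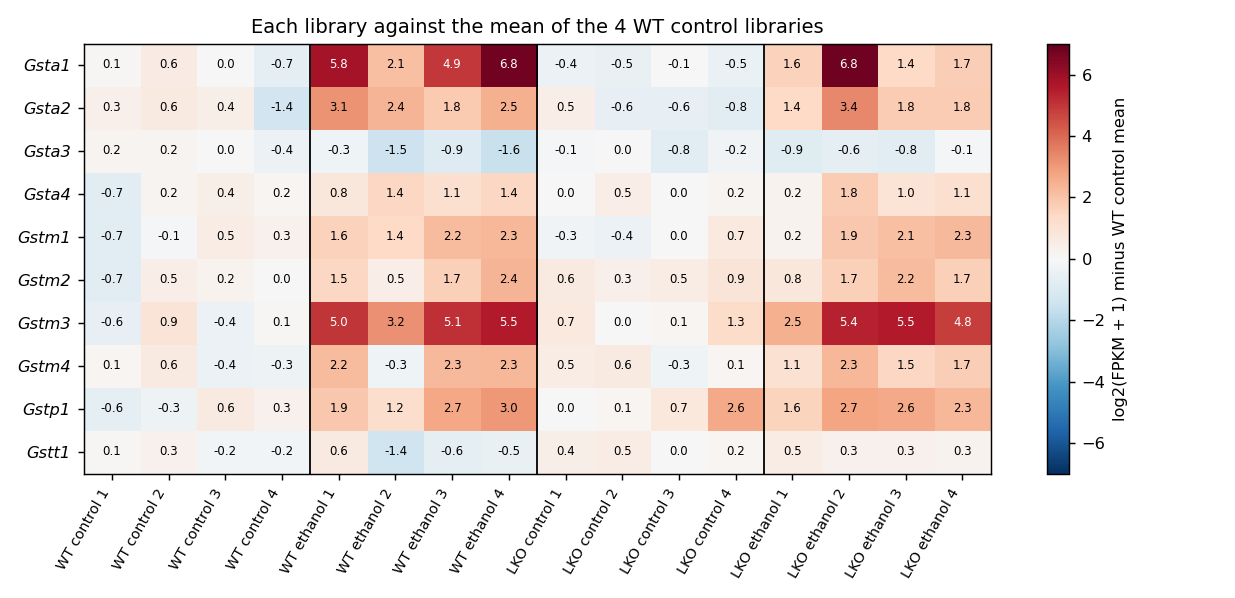
Difference of each library from the mean of the 4 WT control libraries on the log2(FPKM + 1) scale, for the 10 genes and 16 libraries, in red where higher and blue where lower. The WT ethanol columns are red for most genes and the LKO ethanol library 1 column is paler than those of the other LKO ethanol libraries, while the Gsta3 row is blue or near white throughout the ethanol columns.

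Correlations among the 8 genes called on average are given as a description over the 16 libraries. These genes were chosen by their response to diet and the libraries share the diet groups, so positive values are built in. Pearson r of log2(FPKM + 1) was highest at 0.93 for Gstm1 with Gstm3, 0.91 for Gstm2 with Gstm3 and 0.89 for Gstm1 with Gstp1. It was 0.87 for Gsta1 with Gsta2, and lowest at 0.59 for Gsta2 with Gstp1 and 0.63 for Gsta4 with Gstm4. The first 4 of these were 0.93, 0.94, 0.90 and 0.89 without WT ethanol library 2, and Gsta2 with Gstp1 was 0.62. Gsta3 had negative r with each of the 8 genes called, from −0.28 with Gstm4 to −0.63 with Gsta4, and r of 0.64 with Gstt1. Over the 15 libraries without WT ethanol library 2 it ran from −0.41 with Gsta2 to −0.69 with Gstp1, and was 0.47 with Gstt1.

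The genes outside the family that were most like each of the 8 called members changed, in part or whole, when that library was left out. For Gstm3 the nearest was Cyp2b10 (r = 0.94, and 0.95 over the 15 libraries), a cytochrome P450 and the landmark target of CAR. For Gsta1 the nearest were Cdc42se1, Cd93 and Tpm1 (0.97 each), and Tpm1, Cd93 and Arhgef5 over the 15. Lyve1 was near Gstm4 in both (0.95 and 0.94), and Rusc1 near Gstp1 in both (0.93 each), although Ftl1 (0.96) and Cltb (0.95) led for Gstp1 over the 15. All 3 genes nearest to Gsta2, Gsta4, Gstm1 and Gstm2 changed. They were Apold1, S100a10 and Gdpd1 for Gsta2 with 16 libraries, and Creg1, Picalm and Akirin1 with 15. For Gsta4 they went from Degs1, Src and Psmc5 to Cbr1, Slc39a4 and Pdlim1, and for Gstm1 from Bag2, Slc26a6 and Myh10 to Pdlim1, Gldc and Mtap. For Gstm2 they went from Treh, Nmral1 and Slc39a4 to Pdlim1, Tm7sf3 and Nmt1.

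Other genes of glutathione metabolism were compared with the same fit. Of 18 further soluble transferases, 15 had a row and 12 were kept. In WT 2 of the 12 were higher and 0 lower, and their median log2 change was 0.64, where 4.18% of all genes were called and the median of all genes was −0.02. Gstt3, a theta-class neighbour of Gstt1, rose from 13.0 ± 2.85 to 61.1 ± 26.9 FPKM in WT (2.03, adjusted p = 0.00585) and from 12.3 ± 0.833 to 74.9 ± 32.2 in LKO (2.42, adjusted p = 0.00563), and was the only one of the 12 called in LKO, whereas the other called in WT was Gstp2. Gstt2, Gstm5, Gstm6 and Gstm7 were not called in either genotype or on average. When WT ethanol library 2 was left out, Gm10639 was also called in WT (2.52, adjusted p = 0.0262) and on average (1.86, adjusted p = 0.00919), and Gstm5 on average (0.66, adjusted p = 0.0165). Of 6 membrane-bound transferases, 3 were kept and 0 were called by limma in the 3 comparisons of diets. Among them Mgst1, the abundant microsomal transferase, measured 1708 ± 414 FPKM in WT on control and 954 ± 727 on ethanol, with the low end in WT ethanol library 2 at 84.9 (−1.45, adjusted p = 0.211). Without that library its WT change was −0.51 (adjusted p = 0.260), and Mgst3 was called on average (0.74, adjusted p = 0.0440).

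Of 16 genes for glutathione synthesis, recycling and breakdown, 12 were kept. Neither genotype gave a call among them, and the average over genotypes gave 3 higher and 1 lower, where 7.78% of all genes were called. Gss, which makes glutathione in the final step, changed by 0.72 (adjusted p = 0.0227), Gsr, the reductase that recycles it, by 0.88 (adjusted p = 0.0330), and Ggt6 of the gamma-glutamyl transferase family by 0.75 (adjusted p = 0.0442). Chac2, which breaks glutathione down, fell by 1.22 (adjusted p = 0.0192). The subunits of the rate-limiting synthetic enzyme were not called, with average changes of 0.41 for Gclc (adjusted p = 0.669) and −0.75 for Gclm (adjusted p = 0.116). With WT ethanol library 2 left out, Gclm was called lower on average (−0.48, adjusted p = 0.0221), and the change of Gclc was 0.84 (adjusted p = 0.0560). Chac2 was then called lower in WT (−0.93, adjusted p = 0.0188) and in LKO (−0.92, adjusted p = 0.0243), and Gsr higher in WT (1.16, adjusted p = 0.0228).

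Of 11 glutathione peroxidases and glutaredoxins, 10 were kept. In WT Gpx3, the secreted peroxidase, rose (2.70, adjusted p = 0.00644) and Gpx6 fell (−1.20, adjusted p = 0.0333), from 1.89 ± 1.06 FPKM to at most 0.298. On average Glrx, a glutaredoxin, rose as well (0.78, adjusted p = 0.0372), and 0 of the 10 were called in LKO. Of 8 genes for export and conversion of conjugates, 7 were kept and Abcc4, an efflux pump, was the only one called, in WT (1.63, adjusted p = 0.0417) and on average (1.48, adjusted p = 0.00641). Abcc4 was also called in LKO without WT ethanol library 2 (1.33, adjusted p = 0.0455), as was the related pump Abcc3 in WT (1.08, adjusted p = 0.0305), in LKO (1.08, adjusted p = 0.0371) and on average (1.08, adjusted p = 0.00185). All 8 regulators were kept, among them Nfe2l2, which encodes NRF2, and 0 were called in the 3 comparisons. Without WT ethanol library 2, Mafk was higher in WT and on average, and Nr1i2 lower on average.

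Of 6 landmark targets of these regulators, all kept, 2 were higher in WT, 1 in LKO and 3 on average, and 0 were lower, where 4.18%, 0.425% and 7.78% of all genes were called. Cyp2b10 rose in both genotypes, by 7.15 in WT (adjusted p = 5.25e-08) and 6.75 in LKO (adjusted p = 1.32e-07). Srxn1, a sulfiredoxin and NRF2 target, rose in WT (3.42, adjusted p = 0.0109) and changed by 2.93 in LKO (adjusted p = 0.0711), and Nqo1 was called on average only (1.34, adjusted p = 0.0167). Txnrd1, Cyp3a11 and Cyp1a2 made up the other 3 of the 6 and were not called in the 3 comparisons. When WT ethanol library 2 was left out, 3 of the 6 were called in WT, 4 in LKO and 5 on average, against 9.48%, 3.62% and 20.5% of all genes. Nqo1 was then called in WT (1.57, adjusted p = 0.0244) and in LKO (1.52, adjusted p = 0.0352), Srxn1 in LKO (adjusted p = 0.0163), Cyp3a11 in LKO (1.43, adjusted p = 0.0200) and on average (0.76, adjusted p = 0.0266), and Txnrd1 on average (0.96, adjusted p = 0.0100). In the comparisons of genotype and in the interaction, 0 genes of any of these lists were called. Without WT ethanol library 2 that held except for Cyp3a11, which was lower in LKO on the control diet.

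The bases upstream of the start sites are shown for the members with the largest changes and for Gsta3, which did not rise, because the members called rose together. RefSeq windows on GRCm38.p6 were found for 9 of the 10 members, all but Gsta4, and the 250 bases before the start are printed 5′ to 3′ on the gene's strand. Capitals mark matches to the motifs searched.
Gsta1, chr9:78230419-78230668, plus strand: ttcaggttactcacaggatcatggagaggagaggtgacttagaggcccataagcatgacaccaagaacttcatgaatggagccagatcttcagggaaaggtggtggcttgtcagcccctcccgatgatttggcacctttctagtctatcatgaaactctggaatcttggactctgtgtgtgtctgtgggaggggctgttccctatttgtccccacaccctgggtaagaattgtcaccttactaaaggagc
Gsta2, chr9:78347146-78347395, minus strand: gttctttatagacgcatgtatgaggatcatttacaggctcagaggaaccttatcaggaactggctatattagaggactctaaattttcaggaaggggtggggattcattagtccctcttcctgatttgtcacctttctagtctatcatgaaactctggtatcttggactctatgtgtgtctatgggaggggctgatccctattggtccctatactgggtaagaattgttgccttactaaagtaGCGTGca
Gsta3, chr1:21240335-21240584, plus strand: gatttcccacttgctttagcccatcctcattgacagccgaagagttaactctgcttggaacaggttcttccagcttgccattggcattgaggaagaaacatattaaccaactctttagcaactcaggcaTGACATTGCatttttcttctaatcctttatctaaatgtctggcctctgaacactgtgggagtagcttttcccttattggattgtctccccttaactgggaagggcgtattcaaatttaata
Gstm3, chr3:107969175-107969424, minus strand: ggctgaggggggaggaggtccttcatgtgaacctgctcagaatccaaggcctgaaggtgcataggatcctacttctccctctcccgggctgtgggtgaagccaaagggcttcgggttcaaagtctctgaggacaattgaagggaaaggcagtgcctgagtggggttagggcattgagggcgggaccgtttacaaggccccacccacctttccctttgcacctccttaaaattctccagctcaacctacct
Gstp1, chr19:4037913-4038162, minus strand: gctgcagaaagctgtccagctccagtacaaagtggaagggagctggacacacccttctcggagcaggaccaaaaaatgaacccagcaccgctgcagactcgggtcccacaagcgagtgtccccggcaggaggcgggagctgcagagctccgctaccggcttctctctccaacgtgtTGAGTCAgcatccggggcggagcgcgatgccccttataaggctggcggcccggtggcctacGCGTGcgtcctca

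The motifs, searched on both strands, were TGACNNNGC (the core of the antioxidant response element bound by NRF2), a direct repeat of the nuclear receptor half-site AGNTCA with 4 bases between the copies (the kind bound by CAR), GCGTG (the core bound by the aryl hydrocarbon receptor) and TGANTCA (the AP-1 site, added after the Gstp1 sequence had been read). Gsta3 held an antioxidant response element core starting 121 bases before the start, a motif found in 10.2% of 32851 windows of this length. Gstp1 held an AP-1 site at 74 bases (6.75% of windows) and a GCGTG at 13 bases (28.2% of windows), and Gsta2 and Gstm1 held a GCGTG. Gsta1, Gstm2, Gstm3, Gstm4 and Gstt1 held none of the 4 motifs in the 250 bases. The direct repeat occurred in 0.104% of windows and in none of the members. A match is a description of these letters, and its absence says only that they are not in this window.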

How the data were processed

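RNA of 16 liver libraries was quantified by the authors as FPKM per Ensembl gene, and this deposited table was used as it stands. The submitters' processing notes name fastp, STAR 2.6.1, HTSeq, DESeq2 and build mm10, with no role or order. The annotation, strandedness and treatment of multi-mapping reads are not given in the sources used here. Symbols and positions came from GENCODE M21, which named 34490 of 35275 IDs.

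Reads were recovered from the FPKM steps: for the 20520 genes detected in 4 or more libraries, 100% of values lay within 0.1 of a whole read. Genes with FPKM of at least 1 in at least 4 libraries were kept. log2(FPKM + 1), which understates changes of low genes, entered a limma 3.58.1 fit under R 4.3.3 (group means, eBayes with trend, two-sided, Benjamini-Hochberg over 11298 genes), after a test on simulated data. Alternatives covered pseudocount, filter, scaling, weights, voom on recovered reads and leaving out each library.

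Members and lists were chosen with earlier results of these data known. Named were the 10 members, at most 3 called genes per list and direction with the smallest adjusted p, the 3 genes most alike to each called member by Pearson r (passing over predicted genes), and Zfp36l1, and some genes these rules name are not reported here. Gm10639, Gstp3, Gstt2, Gstm5 to Gstm7, Mgst1, Gclc, Gclm, Nfe2l2, the uncalled landmark targets and the sex-typical genes were named after their values were seen.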

Additional observations from a re-analysis of the deposited data

Results flagged for a closer look

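In each group of 4 libraries, the highest and the lowest log2(FPKM + 1) of each member were checked for a gap to the nearest other library above Dixon's 95% critical share of the group's range. Of 40 such groups, 4 held one, and chance gives about 1 in 20. Gsta1 in LKO ethanol library 2, at 217.8 FPKM, lay far above the other 3 LKO ethanol libraries at 4.07 to 5.44. Gsta2 in WT control library 4, at 4.52 FPKM, lay below the other 3 at 16.8 to 20.8. Gsta2 in LKO control library 1, at 18.4 FPKM, lay above the other 3 at 7.35 to 8.46. Gstm4 in WT ethanol library 2, at 9.48 FPKM, lay below the other 3 at 59.7 to 65.1. On the FPKM scale 5 groups held such a gap, 3 of them the same (not Gsta2 in WT control library 4), and the others were Gsta2 in LKO ethanol library 2 at 143 FPKM and Gstp1 in LKO control library 4 at 934.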

How the results depend on the processing

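The number of members called in the average over genotypes was 8 or 9 in each alternative run. The share of all genes called ran from 2.63% with no filter to 36.7% with array weights. In WT, where 7 were called beside 4.18% of all genes, the other alternatives gave 2 to 10. The number was 2 with no filter on low values (1.16% of all genes), 3 when libraries were scaled to equal sums of FPKM (2.24%), 2 when only the WT groups were fitted (0.513%), 9 with quantile normalization (8.25%) and 10 with array weights (38.4%), which added Gstm4 higher and Gsta3 and Gstt1 lower. Leaving out 1 library gave 2 to 8, beside 1.29 to 9.48% of all genes, with 2 without WT control library 4, 3 without WT control library 1 or 2 or WT ethanol library 4, and 4 without WT ethanol library 3. In LKO, where 2 were called beside 0.425%, no filter gave 1 (0.0738%), array weights gave 7 (7.69%), and leaving out WT ethanol library 2 with a term for the sides of the split gave 7 (10.7%). Leaving out 1 library gave 0 (without LKO ethanol library 3, 0.0531%) to 4 (without WT ethanol library 2, 3.62%). Between genotypes on ethanol, where 0 were called by limma, array weights gave 3 (Gsta1, Gstm4 and Gstt1, beside 30.7% of all genes), and leaving out 1 library gave 0 to 1, the 1 being Gstt1 without WT ethanol library 1 (3.43%). Among the diet changes the direction turned for Gstt1 in LKO, to −0.005606 with array weights and −0.009833 without LKO control library 3, within a range of −0.009833 to 0.1653 over the fits that left out 1 library. Among the genotype differences on control, Gstm1 turned to 0.04044 with upper quartile scaling and 0.1322 with the median of ratios, and leaving out 1 library gave −0.2475 to 0.1694 for Gstm1 and −0.06846 to 0.3061 for Gsta4. On ethanol, quantile normalization, array weights, and the split term without WT ethanol library 2 gave −0.03678, −0.7441 and −0.6958 for Gstm4 and −0.01101, −0.1581 and −0.1674 for Gstm2, and the latter pair gave −0.4775 and −0.0773 for Gstp1. Leaving out 1 library there gave −0.4195 to 0.08347 for Gsta4, −0.4506 to 0.2284 for Gstm1, −0.2377 to 0.3931 for Gstm2, −0.6647 to 0.5361 for Gstm3, −0.6308 to 0.2552 for Gstm4 and −0.2372 to 0.3687 for Gstp1. Interaction estimates turned direction 15 times, counting each gene in each fit, for 4 genes. Gstm3, at −0.68 with all 16 libraries, had the largest estimate of these. The Gsta1 call in WT was also lost with voom (adjusted p = 0.0591) and with no filter (adjusted p = 0.05003), and the Gsta2 call in WT when only the WT groups were fitted (adjusted p = 0.0534). Alternatives other than leaving out 1 library ended the WT calls of Gsta4 and Gstm2 in 4 fits each. They ended those of Gstm1 and Gstp1 in 3 each, and the Gsta2 call in LKO in 1. For single genes, interactions were tallied for Gsta1 and Gsta3 only. On that tally 765 results kept their direction and side of the threshold when 1 library was left out. Of the rest, 39 lost a call, 9 gained one and 19 turned direction. Under the other alternatives these numbers were 608, 18, 27 and 11. The 15 turned interaction estimates belong to other members and are in neither set of numbers. The cause of these changes was not tested. A term for sex was not run, since the labels give no sex. A term marking only WT ethanol library 2, for its Y-linked transcripts, would have equalled leaving it out. No paired analysis was run, because no label states a pairing. Some sample titles carry neighbouring numbers across diets, but what the numbers mean is not stated. Gsta1 rested on 4 to 41 reads per control library, which limits its fold change.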
